A study of Mus musculus with 12 samples.

Results

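The NRF2 and antioxidant genes described here are 35 genes chosen by name: the transcription factor gene Nfe2l2 (encoding NRF2), its repressor gene Keap1, and enzymes and carriers that neutralize peroxides, superoxide, quinones, free heme and free iron or supply the reducing power for it. They were found by symbol in a deposited table of raw read counts with 55291 gene symbols. All 35 were present, and 33 of them had enough counts to enter a test of 19010 genes. The counts came from bulk RNA sequencing of activated CD8+ T cells, the killer lymphocytes, isolated from spleen and lymph node of mice that lacked Dock8 or were wild type. The cells were expanded for 3 days and then kept for 24 h in bovine collagen gel at 2 mg/mL or in culture medium. The 4 groups of 3 libraries are Dock8 KO in gel (KO gel), Dock8 KO in medium (KO media), WT in gel (WT gel) and WT in medium (WT media). All groups share the isolation, activation and expansion steps. The series' design text gives 3 mice per group but does not tie each library to a mouse, so p-values measure the spread between these libraries. The mouse strain, age, the Dock8 allele and whether gel and medium cultures came from the same mice were not given in the sources used here.

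NRF2 is a leucine zipper transcription factor that is held at a low level by KEAP1, an adaptor that hands it to a ubiquitin ligase. Oxidants and electrophiles modify cysteines of KEAP1, NRF2 then accumulates, pairs with small MAF proteins and binds antioxidant response elements near genes for glutathione synthesis, thioredoxin reduction, quinone reduction, heme breakdown and iron storage. In T cells, the glutathione and thioredoxin systems are known to be needed for growth and division after activation, since the metabolism of activated cells produces peroxides. Only RNA was measured here, and neither NRF2 protein nor oxidants were.

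The core of the antioxidant response element, TGACNNNGC, was searched on both strands of the 250 bases before each annotated start (RefSeq, GRCm38.p6), of which a gene can have several. It was present for 7 of the 30 genes with a promoter in that table (23.3%), against 11.5% of all 27025 genes, and in 7 of 41 promoter windows (17.1%) against 10.2% of all 32851 windows. The genes were Nfe2l2, Gclm, Prdx1, Mgst1, Txnrd1, Sod1 and G6pdx. 4 of these promoters are shown because their genes stand for the different outcomes reported further on: Txnrd1 rose in KO gel, Sod1 fell, and Prdx1 and Gclm were not called. The windows are chr10:82858956-82859205, chr16:90220512-90220761, chr4:116685349-116685598 and chr3:122245307-122245556, each given on the plus strand, which is the coding strand of these genes. For Txnrd1 this is the 1 of 3 windows with a match, and it lies inside the gene (82833951 to 82897712), before an inner start. The Txnrd1 window that ends at 82833950, just before the gene, has no match. Each matches on the opposite strand, so the capitals mark the reverse complement of the core.
Txnrd1: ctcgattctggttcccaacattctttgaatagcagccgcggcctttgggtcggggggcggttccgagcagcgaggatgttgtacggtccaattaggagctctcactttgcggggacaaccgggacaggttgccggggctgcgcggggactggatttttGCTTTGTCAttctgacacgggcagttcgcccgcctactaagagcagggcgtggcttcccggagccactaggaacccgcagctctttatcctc
Sod1: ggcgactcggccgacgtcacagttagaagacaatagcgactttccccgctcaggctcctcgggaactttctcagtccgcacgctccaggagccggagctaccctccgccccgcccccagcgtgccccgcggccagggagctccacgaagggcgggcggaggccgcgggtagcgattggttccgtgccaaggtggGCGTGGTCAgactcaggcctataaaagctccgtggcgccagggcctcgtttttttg
Prdx1: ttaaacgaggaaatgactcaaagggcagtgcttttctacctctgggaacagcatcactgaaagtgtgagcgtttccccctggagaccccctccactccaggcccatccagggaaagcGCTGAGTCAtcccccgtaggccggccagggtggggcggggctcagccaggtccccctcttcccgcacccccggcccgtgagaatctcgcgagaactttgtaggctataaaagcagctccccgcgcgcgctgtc
Gclm: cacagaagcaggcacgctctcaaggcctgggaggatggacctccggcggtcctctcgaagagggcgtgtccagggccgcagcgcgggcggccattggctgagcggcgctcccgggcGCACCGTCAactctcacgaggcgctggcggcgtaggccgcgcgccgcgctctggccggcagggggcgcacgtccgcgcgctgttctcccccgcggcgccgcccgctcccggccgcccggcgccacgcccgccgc
Read on its own strand the match is TGACAAAGC in Txnrd1, TGACCACGC in Sod1, TGACTCAGC in Prdx1 and TGACGGTGC in Gclm. As printed, the capitals begin 92, 56, 133 and 134 bases before the annotated start of the window, in the same order. For Txnrd1 that is the inner start. The match in Prdx1 also holds TGACTCA, the motif of AP-1 factors, so the letters do not separate the pair of motifs. A match describes the letters in this window and is no measure of binding. Hmox1, Gclc, Gsr, Prdx6 and Gsta4 were not in the promoter table.

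Libraries held 28483064 to 61390702 counts, and the 35 genes took 0.216 to 0.276% of them. Dock8 checked the genotype labels, at 168, 161 and 158 CPM (counts per 1000000 mapped to genes, scaled by TMM factors) in KO gel, 126, 109 and 125 in KO media, 378, 410.5 and 449.6 in WT gel and 362, 418 and 443 in WT media. The 3 KO gel libraries stood apart from the other 9 in the number of genes detected. At a common depth of 28483064 counts 28362 to 30104 genes had at least 1 count in them, against 24336 to 25142 in the rest, and mitochondrial transcripts took 2.27 to 2.61% of their counts against 1.34 to 2.31%, ranges that overlap. Ribosomal RNA genes made up 8.11% of the counts of KO media library 3 and 11.9% of those of WT gel library 2, against 3.19 to 6.96% in the other 10. The part of these measures in the results was not tested, and the values without the 2 libraries rich in ribosomal RNA are given where they change a call.

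Levels between genes were compared as CPM per kilobase of merged exons. On this scale the cytosolic thioredoxin gene Txn1 was the most abundant, with a median of 191 over the 12 libraries. Gpx1 (49.2), Sod1 (47.3), Prdx1 (47.0), Taldo1 (46.7), Tkt (46.5) and Sqstm1 (45.2) came next, with overlapping ranges. The classical NRF2 reporter gene Nqo1 was low, with a median of 1.58, and the microsomal transferase gene Mgst1 was at 0 to 2 counts in every library. The 5 peroxiredoxin genes, Gpx1, Gpx4, Cat and Sod1 each exceeded Nqo1 on this scale in every library.

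**Figure D1:**
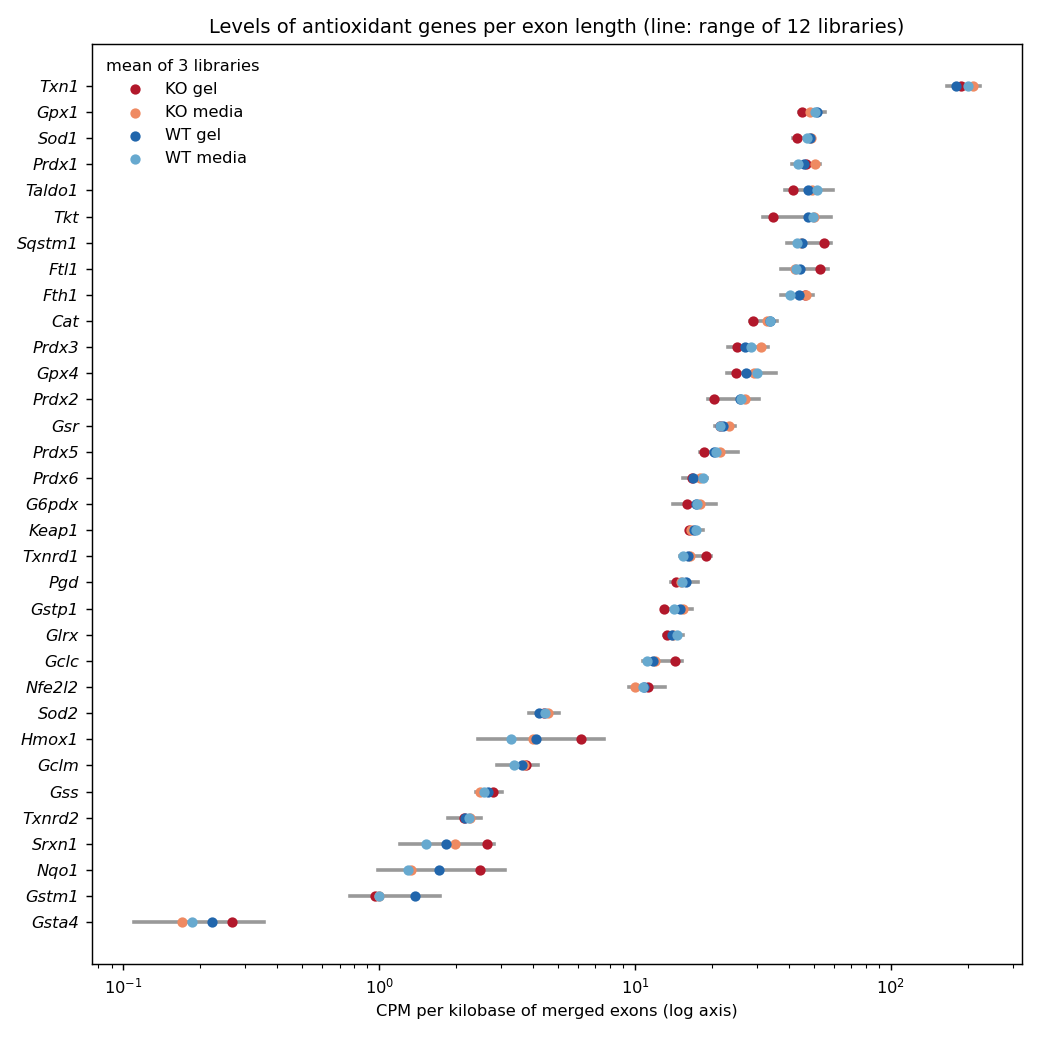
Level of each of the 33 tested antioxidant genes in CPM per kilobase of merged exons (log axis), with the mean of 3 libraries for KO gel, KO media, WT gel and WT media as points and the range of all 12 libraries as a line. Txn1 stands at the top with a median of 191, and Nqo1 near the bottom with 1.58.

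In Dock8 KO cells, gel against medium, 6 antioxidant genes rose, 5 fell and 22 of the 33 were not called (adjusted p under 0.05, edgeR's quasi-likelihood test, Benjamini-Hochberg adjustment over all 19010 genes, here and for every adjusted p that follows). An unadjusted p under 0.05 was found for 14 of the 33 and for 6982 of all 19010 genes. The 6 that rose were Nqo1, Hmox1, Ftl1, Sqstm1, Gclc and Txnrd1, which handle quinones, heme, iron, damaged protein, glutathione synthesis and thioredoxin reduction. The 5 that fell were Tkt, Prdx2, Prdx3, Gstp1 and Sod1, a sugar phosphate enzyme, a pair of peroxiredoxins, a transferase and a dismutase. For none of these 11 did the KO gel and KO media libraries overlap, which was not counted over all genes and adds no support to the calls. The same limit holds wherever libraries are said below not to overlap or to lie above or below others. Across all genes 11.1% rose and 9.74% fell. The 33 genes are mostly abundant, and response varied with level: of the 9959 genes that averaged 3 or more in log2 CPM, 6.42% rose and 16.8% fell. At that level 4 of 28 antioxidant genes rose (14.3%) and 5 fell (17.9%), so the share that fell was near that of other genes of like abundance. Their median log2 fold change was −0.11, against −0.08 for all genes at that level.

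Scaling by total counts alone left the 6 rises and called 2 falls, Prdx2 and Tkt (75% of calls higher, against 54.5%). Of all called genes 69.8% were higher under that scaling, against 53.3% with TMM. A fit limited to genes averaging 3 or more in log2 CPM called 5 rises and 1 fall, Tkt. With KO media library 3 and WT gel library 2 left out, 4 genes were called: Nqo1, Txnrd1, Ftl1 and Tkt. The count fell to 1, Tkt alone, without KO gel library 3, and it was 6, 7, 5, 4 and 7 without KO gel libraries 1 and 2 and KO media libraries 1, 2 and 3.

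**Figure D2:**
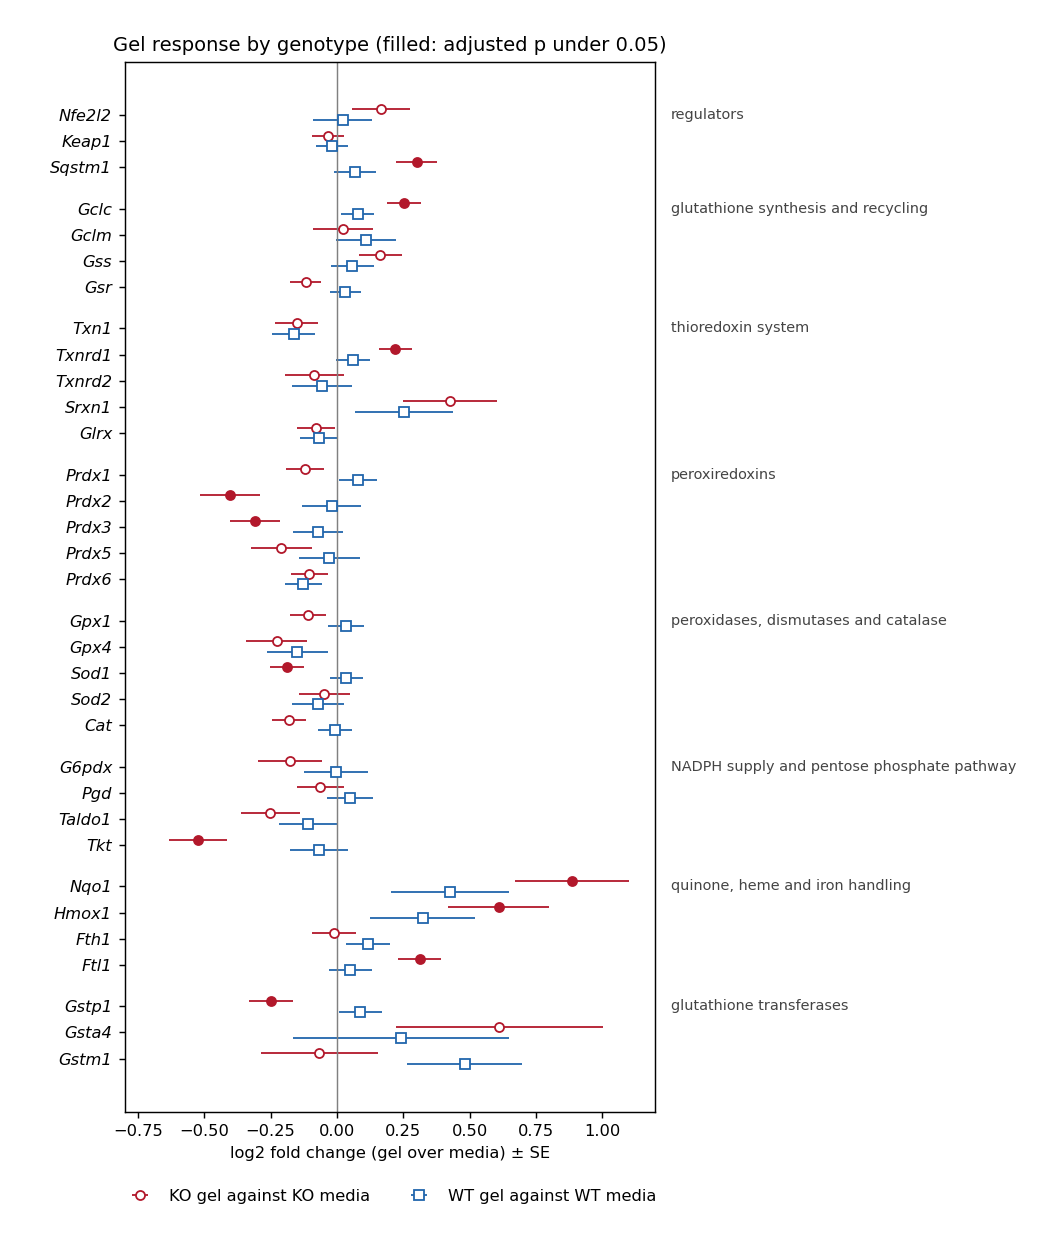
Log2 fold change of gel over media with its standard error for the 33 tested antioxidant genes, in Dock8 KO cells (red circles) and WT cells (blue squares), grouped by role; filled symbols have an adjusted p under 0.05. In KO cells 11 genes are called, from Nqo1 at 0.89 to Tkt at −0.52, and in WT cells 0 are called.

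**Figure D3:**
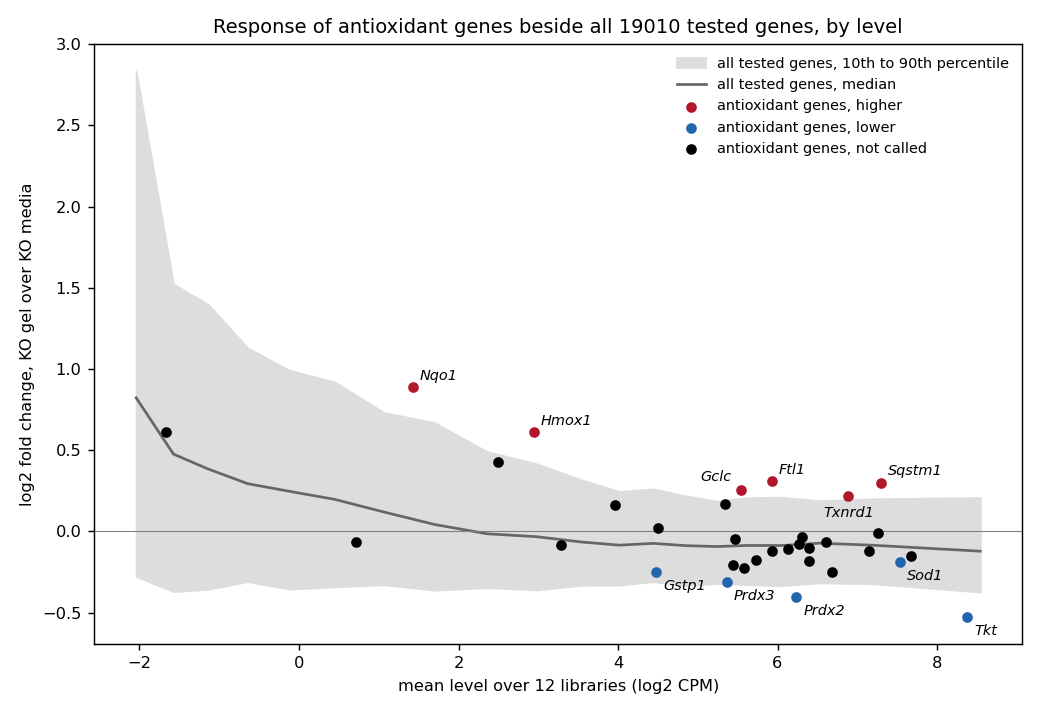
Log2 fold change of KO gel over KO media (vertical axis) against the mean level over 12 libraries in log2 CPM (horizontal axis), with antioxidant genes as points and all 19010 tested genes as their median (line) and 10th to 90th percentile (band) in 20 bins of level. The median of all genes is 0.82 in the bin of lowest level and −0.12 in the highest, and the 6 antioxidant genes that rose lie above the band, Tkt and Prdx2 below it, and Prdx3, Gstp1 and Sod1 within it.

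Among the regulators, Nfe2l2 itself, on chromosome 2 (75675513 to 75704641, minus strand), was not called. Its level was 44.8, 39.8 and 42.9 CPM in KO gel, 39.8, 35.9 and 37.8 in KO media, 36.1, 37.9 and 49.8 in WT gel and 37.8, 38.6 and 45.9 in WT media. KO gel and KO media overlapped, and WT gel library 3 was the highest of the 12 (KO gel against KO media: log2 fold change 0.17, SE 0.11, adjusted p 0.286). Keap1 had 75.4, 76.1 and 77.0 CPM in KO gel, 81.7, 76.0 and 76.2 in KO media, 83.1, 79.6 and 77.5 in WT gel and 86.5, 77.0 and 79.8 in WT media, a narrow spread in all groups (log2 fold change −0.03, SE 0.06, adjusted p 0.724). Sqstm1, which encodes the autophagy receptor p62 that binds KEAP1 and is itself an NRF2 target, was the regulator that rose. Its level was 179, 178 and 196 CPM in KO gel, 155, 146 and 148 in KO media, 156, 148 and 148 in WT gel and 163, 137 and 132 in WT media. Every KO gel library lay above all 9 others, by 23.2% over KO media (log2 fold change 0.30, SE 0.08, adjusted p 0.0162). Exons of Sqstm1 overlap those of Mrnip on the opposite strand over 580 bases, and the strand setting of the counting is not given in the sources used here.

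Quinone, heme and iron genes held 3 of the 6 rises, with 0 falls among 4 tested. Nqo1, the NAD(P)H quinone dehydrogenase and the gene most often read as a marker of NRF2 activity, lies on chromosome 8 (107388225 to 107403206, minus strand). Its level was 3.40, 3.35 and 4.84 CPM in KO gel, 2.42, 1.54 and 2.26 in KO media, 2.46, 2.43 and 3.12 in WT gel and 1.61, 1.90 and 2.50 in WT media. All KO gel libraries exceeded all others, at counts of 129, 134 and 194 in KO gel against 154, 63 and 88 in KO media, which are raw counts from libraries of unequal depth. The rise over KO media was 85.0% (log2 fold change 0.89, SE 0.21, adjusted p 0.0108). Hmox1, heme oxygenase 1, which breaks heme into biliverdin, carbon monoxide and iron, had 9.16, 9.76 and 13.2 CPM in KO gel, 7.55, 6.04 and 7.46 in KO media, 7.95, 7.76 and 5.84 in WT gel and 7.29, 5.60 and 4.25 in WT media. KO gel lay above the rest, with library 3 the highest (52.6% over KO media, log2 fold change 0.61, SE 0.19, adjusted p 0.0369). Its call was lost in 6 of 21 alternatives, each of which left out at least 1 KO library. The ferritin light chain gene Ftl1, which stores iron with Fth1, had 66.6, 68.5 and 76.4 CPM in KO gel, 60.7, 49.9 and 59.8 in KO media, 58.2, 58.6 and 60.0 in WT gel and 60.8, 53.6 and 56.3 in WT media. Its KO gel libraries were above all others (log2 fold change 0.31, SE 0.08, adjusted p 0.0162), and 2 near copies counted on their own also rose (Ftl1-ps1 at 0.22 and Ftl2-ps at 0.26), so reads may be shared among them. Exons of Ftl1, 1340 bases in all, overlap those of Gm10252 on the opposite strand and Gm22133 on the same strand over 464 bases. The heavy chain gene Fth1 was not called (log2 fold change −0.01, SE 0.08, adjusted p 0.945).

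Of the 4 glutathione synthesis and recycling genes, Gclc rose and 0 fell. Gclc encodes the catalytic subunit of glutamate-cysteine ligase, the rate-limiting step, and lies on chromosome 9 (77754535 to 77794485, plus strand). It had 53.1, 50.9 and 57.7 CPM in KO gel, 45.6, 44.2 and 45.8 in KO media, 44.6, 44.3 and 44.1 in WT gel and 44.5, 41.0 and 40.4 in WT media. The KO gel libraries did not overlap with any other library, and the other 9 spread over a few CPM only (19.2% over KO media, log2 fold change 0.25, SE 0.06, adjusted p 0.0124). The modifier subunit gene Gclm, whose promoter holds the core motif, had a log2 fold change of 0.02 (SE 0.11, adjusted p 0.901). Glutathione synthetase Gss was at 0.16 (adjusted p 0.162) and glutathione reductase Gsr at −0.12 (adjusted p 0.158), and neither passed the test. In both, the KO gel and KO media libraries did not overlap, which was not counted over all genes.

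In the thioredoxin system 1 of 5 rose. Txnrd1, the cytosolic thioredoxin reductase that returns electrons from NADPH to thioredoxin, lies on chromosome 10 (82833951 to 82897712, plus strand). Its level was 131, 132 and 141 CPM in KO gel, 115, 109 and 123 in KO media, 110.3, 113 and 118 in WT gel and 109.6, 106 and 112 in WT media. The lowest KO gel library was above the highest of the others, KO media library 3 (16.5% over KO media, log2 fold change 0.22, SE 0.06, adjusted p 0.0246). Its substrate gene Txn1 had −0.15 (adjusted p 0.189) and the mitochondrial reductase gene Txnrd2 −0.09 (adjusted p 0.601). Sulfiredoxin, Srxn1, which repairs overoxidized peroxiredoxins, had 6.73, 7.91 and 7.76 CPM in KO gel, 5.35, 4.74 and 6.61 in KO media, 6.04, 5.45 and 3.93 in WT gel and 5.13, 4.32 and 3.42 in WT media. The KO gel libraries were the 3 highest, with KO media library 3 just under them, and the gene was not called (log2 fold change 0.43, SE 0.18, adjusted p 0.0992). Glutaredoxin, Glrx, was at −0.08 (adjusted p 0.435).

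Of 5 peroxiredoxins, the thiol peroxidases that reduce hydrogen peroxide, 2 fell and 0 rose. Prdx2, a cytosolic member, had 58.8, 65.1 and 61.9 CPM in KO gel, 83.1, 84.7 and 77.8 in KO media, 90.7, 74.5 and 69.3 in WT gel and 93.3, 77.2 and 67.3 in WT media. All 3 KO gel libraries were the lowest of the 12, while WT libraries ran widely, with replicate 1 high in both cultures (24.4% under KO media, log2 fold change −0.40, SE 0.11, adjusted p 0.0219). Prdx3, the mitochondrial member, had 34.1, 39.5 and 37.2 CPM in KO gel, 44.0, 48.5 and 45.0 in KO media, 41.5, 40.5 and 37.8 in WT gel and 48.8, 40.0 and 36.8 in WT media. It did not overlap between KO gel and KO media, and KO gel overlapped both WT groups (log2 fold change −0.31, SE 0.09, adjusted p 0.0326). The calls of Prdx2 and Prdx3 were lost in 6 and 9 of 22 alternatives. Prdx1, the other main cytosolic member and one with the core motif, was at −0.12 (adjusted p 0.245), Prdx5 at −0.21 (adjusted p 0.202) and Prdx6 at −0.10 (adjusted p 0.288). Exons of Prdx2 overlap those of Junb and Rnaseh2a on the opposite strand over 350 bases.

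Among peroxidases, dismutases and catalase, 1 of 5 fell. Sod1, the copper and zinc superoxide dismutase of the cytosol, had 167, 164 and 179 CPM in KO gel, 197, 190.4 and 195 in KO media, 196, 185 and 193 in WT gel and 199, 182 and 178 in WT media. KO gel library 3 exceeded the lowest WT media library, while KO media and WT gel were clear of KO gel (log2 fold change −0.19, SE 0.06, adjusted p 0.0486). The change was 12.3%, and the call was lost in 12 of 22 alternatives. Catalase, Cat, which splits hydrogen peroxide in peroxisomes, had 74.4, 73.7 and 77.8 CPM in KO gel, 90.1, 80.0 and 85.9 in KO media, 83.1, 86.4 and 93.6 in WT gel and 89.3, 85.4 and 89.5 in WT media. Its KO gel libraries were the lowest 3, and against KO media it just missed the threshold (log2 fold change −0.18, SE 0.06, adjusted p 0.0601). Gpx1 and Gpx4, selenium-dependent peroxidases for hydrogen peroxide and for lipid peroxides, were at −0.11 (adjusted p 0.265) and −0.23 (adjusted p 0.164). Gpx4-ps2 held more counts than Gpx4 itself, so the value for Gpx4 is uncertain. The mitochondrial dismutase gene Sod2 was at −0.05 (adjusted p 0.746).

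Of 4 tested genes of NADPH supply and the pentose phosphate pathway, Tkt fell and 0 rose. Transketolase, Tkt, the enzyme that exchanges carbon units between pentose phosphates and glycolysis, lies on chromosome 14 (30548359 to 30574720, plus strand). Its level was 233, 270.3 and 263 CPM in KO gel, 379.9, 358 and 363 in KO media, 393, 339.8 and 309 in WT gel and 429.5, 345 and 319 in WT media. All KO gel libraries were below all 9 others, and Tkt fell by 30.5% against KO media (log2 fold change −0.52, SE 0.11, adjusted p 0.0049). The call held in 22 of 22 alternatives, the only one of the 11 to do so. Transaldolase Taldo1, its partner in the same branch, had −0.25 (adjusted p 0.115), with no overlap between KO gel and KO media. The NADPH-producing dehydrogenases of the oxidative branch, G6pdx and Pgd, had −0.18 (adjusted p 0.302) and −0.06 (adjusted p 0.627). Malic enzyme 1, Me1, a further NADPH source, was too low for the filter, with 8, 22 and 16 counts in KO gel, 6, 7 and 8 in KO media, 2, 2 and 2 in WT gel and 8, 2 and 3 in WT media. In 12 alternatives that let it in, its log2 fold change for KO gel over KO media was 1.03 to 1.63, past the threshold in 7. Those alternatives share most libraries, and nearly all let Me1 in through its KO gel counts.

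Among the glutathione transferases, which couple glutathione to electrophiles, 1 of 3 tested fell and 0 rose. Gstp1 had 19.7, 20.6 and 19.9 CPM in KO gel, 23.8, 25.4 and 22.3 in KO media, 25.9, 21.3 and 22.7 in WT gel and 21.1, 21.3 and 23.4 in WT media. The 3 KO gel libraries were the lowest of the 12, the highest of them just under WT media library 1 (log2 fold change −0.25, SE 0.08, adjusted p 0.0451). Its call was lost in 10 of 22 alternatives, and the copy Gstp-ps fell too (−0.30, adjusted p 0.0379). Gsta4 and Gstm1 were low, at 0.238 to 0.449 and 1.20 to 1.57 CPM in KO gel, and were not called (log2 fold change 0.61, SE 0.39, and −0.07, SE 0.22). Mgst1 had 0, 2 and 0 counts in KO gel, 0, 2 and 0 in KO media, 0, 0 and 1 in WT gel and 0 in all WT media libraries.

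**Figure D4:**
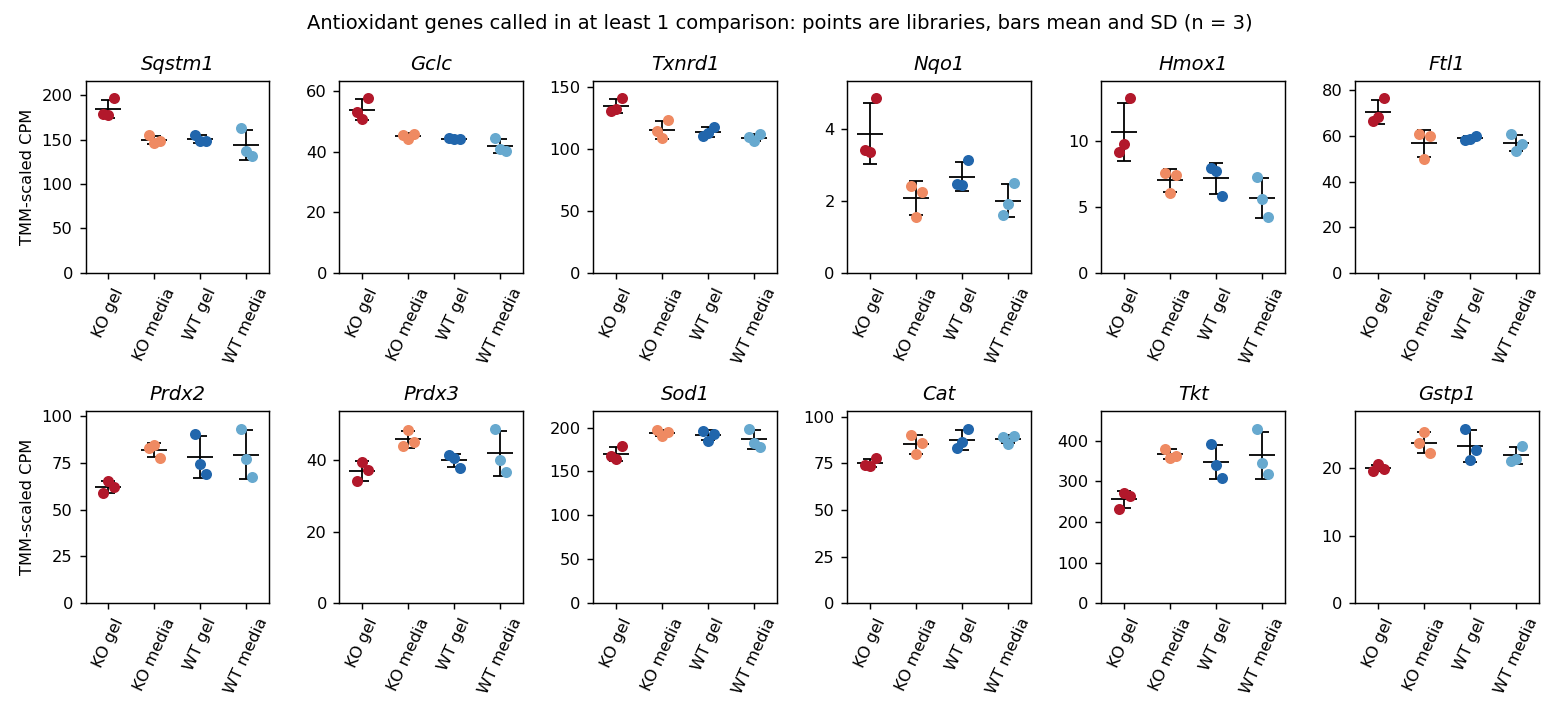
TMM-scaled CPM (vertical axes from 0) of the 12 antioxidant genes called in at least 1 comparison, by group, with libraries as points and the mean and SD of 3 libraries as bars. In the upper row the KO gel libraries lie above all others, as for Nqo1 at 3.35 to 4.84 CPM, and in the lower row they lie lowest for Prdx2, Cat, Tkt and Gstp1.

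In WT cells, gel against medium, 0 of the 33 genes were called by edgeR, 1 had an unadjusted p under 0.05 (1033 of all 19010 genes did), and DESeq2 and limma-voom called 0. The background was as sparse, 7 of 19010 genes or 0.0368%. With the replicate number as a block (same-numbered WT libraries deviated together) the count over all genes was 171 and that of antioxidant genes was still 0. Of the genes that rose in KO gel, Nqo1 had 0.43 (SE 0.22) and Hmox1 0.32 (SE 0.20) in WT cells, with overlapping libraries. Sqstm1 had 0.07 (SE 0.08), Gclc 0.08 (SE 0.06), Txnrd1 0.06 (SE 0.06) and Ftl1 0.05 (SE 0.08). Of those that fell, Tkt had −0.07 (SE 0.11), Prdx2 −0.02 (SE 0.11) and Sod1 0.04 (SE 0.06). The single gene of the 33 with an unadjusted p under 0.05 was Gstm1, at 2.55, 1.67 and 1.89 CPM in WT gel and 1.69, 1.58 and 1.13 CPM in WT media (log2 fold change 0.48, SE 0.22, adjusted p 0.901).

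Whether the gel response differed between the genotypes was tested as an interaction. None of the 33 genes passed in edgeR (DESeq2 and limma-voom called 0), against 3.35% of all genes. An unadjusted p under 0.05 was found for 5 of the 33 and for 3726 of all 19010 genes. The 5 were Tkt (−0.46, SE 0.15, adjusted p 0.123), Gstp1 (−0.34, SE 0.12, adjusted p 0.126), Sod1 (−0.22, SE 0.09, adjusted p 0.187), Prdx2 (−0.38, SE 0.16, adjusted p 0.201) and Ftl1 (0.26, SE 0.12, adjusted p 0.229). For Nqo1 the difference was 0.46 (SE 0.31, adjusted p 0.434) and for Hmox1 0.29 (SE 0.27, adjusted p 0.595). In this fit a change called in KO cells and not in WT cells is therefore not shown to be larger in KO cells for any of these genes. With the replicate number as a block within each genotype 6 passed, Tkt, Prdx2, Gstp1, Sod1, Ftl1 and Prdx3, with Ftl1 the 1 that was positive. Same-numbered libraries deviated together in WT cells but not in every pair in KO cells, so that block is only partly a pairing. Without WT media library 1, which was high for Tkt, Prdx2 and Prdx3, the test called these 3 (−0.60, −0.52 and −0.37).

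Between the genotypes in gel, 4 antioxidant genes were higher in KO gel than in WT gel, 2 were lower and 27 of 33 were not called. An unadjusted p under 0.05 was found for 14 of the 33 and for 5715 of all 19010 genes. This comparison shares the 3 KO gel libraries with the one of KO gel and KO media, so its values are not a second measurement of the KO gel level. The higher genes were Gclc (0.28, SE 0.06, adjusted p 0.00905), Sqstm1 (0.29, SE 0.08, adjusted p 0.0238), Txnrd1 (0.24, SE 0.06, adjusted p 0.0199) and Ftl1 (0.26, SE 0.08, adjusted p 0.0476). The lower ones were Tkt (−0.44, SE 0.11, adjusted p 0.0151) and Cat (−0.22, SE 0.06, adjusted p 0.0346). All 6 were clear of the WT gel libraries, which was likewise not counted over all genes. The calls were lost in 13 (Ftl1), 8 (Cat), 5 (Txnrd1), 5 (Sqstm1), 4 (Tkt) and 2 (Gclc) of 22 alternatives. Across all genes 7.12% were higher and 7.71% lower, and at a mean log2 CPM of at least 3 the shares were 4.03% and 13.3%, against 14.3% and 7.14% of the 28 antioxidant genes.

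Gpx1, Hmox1, Srxn1 and Prdx2 missed the threshold narrowly, with adjusted p of 0.0575, 0.0578, 0.0583 and 0.0591. The groups did not overlap for these genes, which was not counted over all genes and adds no support to them. DESeq2's Wald test called them as well, 10 genes in all. Nqo1 was at 0.52 (SE 0.22, adjusted p 0.12). Scaling by total counts alone called 6 higher (Gclc, Txnrd1, Sqstm1, Ftl1, Hmox1 and Srxn1) and 0 lower, a scaling that also moved the median of all genes to 0.10. Under it 82.2% of all called genes were higher, against 48% with TMM. With KO media library 3 and WT gel library 2 left out, 0 of the 33 genes were called. Without KO gel library 3 the only call was Tkt, without KO gel library 1 or WT gel library 2 there were 2 calls, without KO gel library 2, WT gel library 1 or WT gel library 3 there were 4, and without WT media library 1 there were 10. The low Me1 was past the threshold in all 12 alternatives that let it in, those without the libraries rich in ribosomal RNA among them, at a log2 fold change of 2.51 to 2.93. These alternatives share most libraries and are not separate tests. Except with no filter beyond 1 count, its KO gel counts are what let it in, so these calls are no further support.

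In medium, KO cells and WT cells showed no called difference in any of the 33 genes by edgeR (DESeq2 and limma-voom called 0), against 0.189% of all genes, 36 in number. An unadjusted p under 0.05 was found for 2 of the 33 and for 1423 of all 19010 genes. With the replicate number as a block the count over all genes was 57, and that of antioxidant genes was still 0. The 2 were Prdx1, at 146, 161 and 154 CPM in KO media and 141, 124 and 131 CPM in WT media (log2 fold change 0.22, SE 0.07, adjusted p 0.507), and Fth1, at 151, 172 and 163 CPM in KO media and 151, 140.0 and 129.6 CPM in WT media (log2 fold change 0.21, SE 0.08, adjusted p 0.606). Prdx1 did not overlap between the groups, and Fth1 did. Nfe2l2, Nqo1 and Hmox1 were at −0.11 (SE 0.11), 0.06 (SE 0.22) and 0.30 (SE 0.19).

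**Figure D5:**
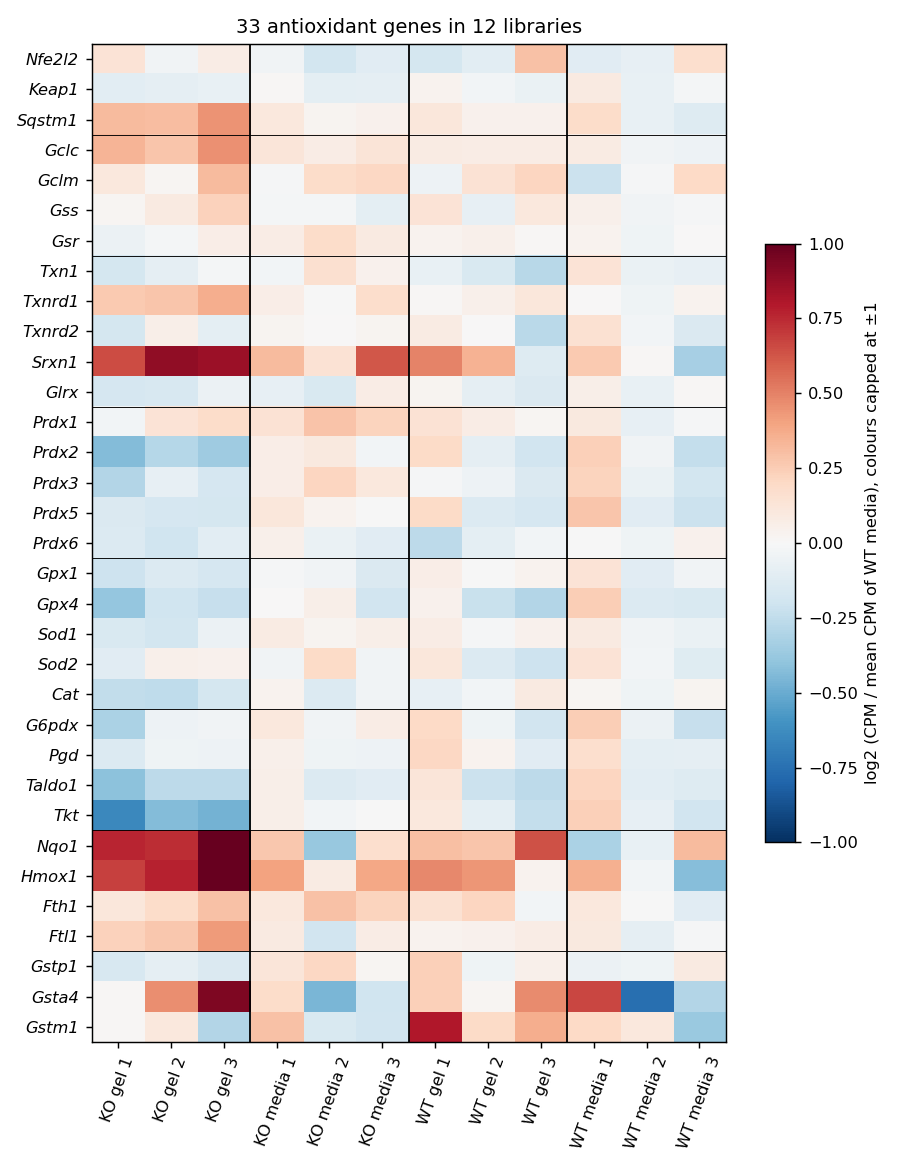
Log2 ratio of each library's CPM to the mean CPM of WT media for the 33 tested antioxidant genes (rows, by role) in 12 libraries (columns), with colours capped at 1 in either direction. Nqo1, Hmox1, Srxn1, Sqstm1, Gclc and Txnrd1 are red in all 3 KO gel libraries and Tkt is blue in them, and WT media library 1 is red for Prdx2, Prdx3 and Tkt.

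Further genes of the pathway came from 8 lists with 93 tested genes. In KO gel against KO media 7 of them rose (7.53%) and 18 fell (19.4%), and of the 70 that averaged 3 or more in log2 CPM 5.71% rose and 22.9% fell, against 6.42% and 16.8% of all genes at that level. Without the 2 libraries rich in ribosomal RNA 11 calls were left. There 5 rose (Bach1, Gpx3, Mafg, Sesn2 and Slc7a11) and 6 fell (Gpx7, Htatip2, Me2, Msrb1, Mthfd1l and Prdx4), and the other calls named below for this contrast were lost. Gpx3 and Slc7a11 passed the filter only through KO gel, so their rises are no further support, here or within the 7.53%. In KO gel against WT gel 8 were higher and 8 lower (8.6% each), against 7.12% and 7.71% of all genes. Of the 70 that averaged 3 or more in log2 CPM, 7.14% were higher and 11.4% lower, against 4.03% and 13.3% of all genes at that level. Of 11 NRF2 regulators and partners, 2 rose and 0 fell in KO gel against KO media. They were Mafg, a small MAF partner of NRF2 (28.7, 29.5 and 31.4 CPM in KO gel, 24.0, 24.7 and 24.3 in KO media, log2 fold change 0.30, SE 0.07, adjusted p 0.00801), and Bach1, which competes with NRF2 for its sites and represses Hmox1 (51.6, 43.7 and 50.2 CPM in KO gel, 35.1, 29.8 and 39.6 in KO media, log2 fold change 0.48, SE 0.13, adjusted p 0.0215). Neither overlapped. Against WT gel, Mafg was higher as well (0.31, adjusted p 0.00891) and Bach1 was not called (0.27, adjusted p 0.184). Of 15 other NRF2 targets, 1 rose and 4 fell in KO gel against KO media. The riser was Slc7a11, the cystine importer, from very few reads (17, 36 and 31 counts in KO gel, 6, 6 and 11 in KO media, adjusted p 0.00401). Slc7a11 too passed the filter only through KO gel. Among the fallers were the oxidoreductase gene Htatip2 (−0.32) and biliverdin reductase Blvra (−0.37), which works after heme oxygenase. Against WT gel the counts were 2 higher, Slc7a11 and its partner chain Slc3a2 (0.21), and 1 lower, the transporter gene Abcc4 (−0.24).

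Of 17 other peroxidases and thiol reductases, 2 rose and 3 fell in KO gel against KO media. Prdx4, the peroxiredoxin of the endoplasmic reticulum, had 13.3, 16.0 and 13.3 CPM in KO gel, 25.1, 30.3 and 24.8 in KO media, 28.4, 24.7 and 24.6 in WT gel and 29.0, 24.9 and 24.3 in WT media. The highest KO gel value was far under the lowest of the other 9 (log2 fold change −0.91, SE 0.11, adjusted p 0.000114). It was also lower than in WT gel (−0.87, SE 0.11, adjusted p 0.000237). The methionine sulfoxide reductase gene Msrb1 fell (−0.35, adjusted p 0.00624), and Gpx3, the secreted peroxidase, had 22, 24 and 27 counts in KO gel, 0, 1 and 2 in KO media, 0 in all WT gel libraries and 2, 0 and 0 in WT media (adjusted p 0.000412 against KO media). Gpx3 thus came to 0.581 to 0.673 CPM in KO gel, a low level, and it passed the filter only through that group. Against WT gel 2 were higher and 3 lower, with Selenow, a selenoprotein gene, at −0.38.

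Of 15 other NADPH sources, 1 rose and 5 fell in KO gel against KO media. Falls included the mitochondrial folate enzyme gene Mthfd1l (−0.50, SE 0.09, adjusted p 0.00242), mitochondrial malic enzyme Me2 (−0.32, SE 0.06, adjusted p 0.00292) and Nnt (−0.24, SE 0.07, adjusted p 0.0278). Nnt, the transhydrogenase that makes NADPH in mitochondria and is disrupted in the C57BL/6J mouse substrain, was the 1 gene of these lists called between genotypes in both cultures. Its level was 33.1, 32.5 and 33.5 CPM in KO gel, 39.3, 38.1 and 39.4 in KO media, 15.8, 17.0 and 16.0 in WT gel and 17.5, 17.4 and 14.9 in WT media. KO libraries all lay above WT libraries, in medium (log2 fold change 1.23, SE 0.07, adjusted p 2.03e-07) and in gel (log2 fold change 1.03, SE 0.07, adjusted p 1.27e-06). Of 12 iron handling and ferroptosis genes 0 rose and 2 fell, Lpcat3 (−0.22) and Pcbp1 (−0.24), and of 12 other glutathione transferases 0 rose and 1 fell, Gstk1 (−0.31). Of 6 p53 targets with antioxidant roles, the stress sensor gene Sesn2 rose (27.6, 27.7 and 30.2 CPM in KO gel, 19.2, 14.2 and 19.5 in KO media, log2 fold change 0.69, SE 0.12, adjusted p 0.00124) and Tigar fell (−0.26, adjusted p 0.0491). Of 5 tested genes of the phagocyte oxidase, a complex that produces superoxide, 0 rose and 2 fell, Cyba (−0.23) and Rac2 (−0.24). Cybb, also on that list, had 0 to 6 counts in every library and was not tested, so these falls do not show a change in the oxidase. In WT gel against WT media, edgeR called 0 of the 93 genes tested in the 8 lists (5 with an unadjusted p under 0.05), DESeq2 0 and limma-voom 0.

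Markers of other cells were counted beside these results. The 8 CD8 T cell markers summed to 3014 to 3187 CPM in KO gel, 3059 to 3448 in KO media, 3284 to 3538 in WT gel and 3246 to 3622 in WT media. Erythroid markers, 6 in number and of interest for Hmox1, summed to 0.897 to 2.95 CPM in KO gel, 0.267 to 0.685 in KO media, 0.151 to 0.249 in WT gel and 0.0854 to 0.356 in WT media. Neutrophil markers (5) summed to 1.13 to 1.25 CPM in KO gel, 0.110 to 0.293 in KO media and at most 0.0504 in WT gel and 0.0427 in WT media, nearly all of it Mpo in KO gel, with the defining genes S100a8 and S100a9 at 0 there. Macrophage and dendritic markers (6), nearly all Itgax and Cd68, summed to 36.3 to 48.2 CPM in KO gel, 40.6 to 48.5 in KO media, 20.4 to 36.5 in WT gel and 20.3 to 37.0 in WT media. Lyz2, Csf1r and Adgre1 had few counts in every library, and C1qa was at 0 in all groups. CD4 T cell markers (3) reached 4.88 to 8.60 CPM in KO gel against 3.18 to 6.78 in the other groups. Of these 3, 2 were called higher in KO gel than in KO media and 1 higher than in WT gel, against 11.1% and 7.12% of all genes. Foxp3 had 173 and 198 counts in library 3 of WT gel and WT media, and 4 to 48 in the other libraries. Stromal markers (5), nearly all Pecam1, reached 119 to 132 CPM in KO gel against 110.0 to 147 in the other groups. The B cell list (6) was almost wholly Ighm, at 735 to 809 CPM in KO gel and 721 to 1046 elsewhere. The part of these cells in the results was not tested, and in bulk RNA fewer cells of a type and less RNA per cell cannot be told apart.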

How the data were processed

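The values are raw read counts per gene symbol, which the authors deposited in 1 table for 12 libraries of total RNA with ribosomal RNA removed. The submitters' processing notes name featureCounts, HISAT2, Picard, SAMtools, FastQC and MultiQC, and the build GRCm38 (mm10). A splicing aligner with counting over genes suits such libraries. Not given in the sources used here are versions, annotation, strand setting and the treatment of multiply mapped reads, each of which can move counts between overlapping genes or copies. The 35 genes and the 8 further lists were chosen with earlier results of these data known.

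Genes were filtered with filterByExpr (19010 of 55291 kept), counts scaled by TMM, and the robust quasi-likelihood F test of edgeR fitted to the 4 groups at once (edgeR 4.0.16 under R 4.3.3). Alternatives used DESeq2 1.42.0 and limma 3.58.1. There were 5 contrasts, gel over media in each genotype, KO over WT in each culture, and their interaction. Benjamini-Hochberg adjustment ran over all genes tested, with a threshold of 0.05. CPM is the count times 1000000 over the scaled library total, and the SE is the absolute log2 fold change over the square root of F. Exon lengths and positions came from GENCODE M21, also GRCm38, which matched 96.4% of symbols. The test was checked on simulated data first. Counts of replicates differed beyond sampling noise (chi-square over its degrees of freedom 13.0 to 19.0 in KO gel and 27.9 to 167 in the other groups). Pooled over genes, depth is thus a minor part of the error. This was not measured apart for genes with few counts.

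By rule, values in every library are given for antioxidant genes called in any contrast and for Nfe2l2, Keap1, Nqo1, Hmox1 and Dock8, and each further list names up to 3 called genes per contrast in order of p. Not every gene this rule takes is named. Library values of Srxn1, Gstm1, Prdx1, Fth1, Taldo1, Gpx4, Prdx5, G6pdx, Me1 and Mgst1 were added after their values were seen. Same-numbered libraries deviated together for WT gel and WT media (correlations 0.237 to 0.793 over the group means) and for KO media and WT media (0.161 to 0.379), so those numbers were treated as pairs in a blocked alternative. For KO gel with KO media (−0.045 to 0.180) and with WT gel (−0.419 to 0.142) they share only a number. The blocked counts of those contrasts and of the interaction thus rest on pairs that these correlations do not bear out.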

Additional observations from a re-analysis of the deposited data

Results flagged for a closer look

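Prdx4, the peroxiredoxin of the endoplasmic reticulum, was the 1 gene of the 93 tested in the further lists, beside 0 of the 33 antioxidant genes, whose gel response differed between the genotypes by edgeR's test of the difference itself. Of the 93, DESeq2 called 5 (Prdx4, Gpx3, Lpcat3, Me2 and Pcbp1), limma-voom 2 (Prdx4 and Gpx3) and the replicate block 17, Prdx4 among them. The log2 interaction was −0.90 (SE 0.15, adjusted p 0.0088, edgeR's quasi-likelihood test), with a log2 fold change of gel over media of −0.91 in KO cells and −0.01 in WT cells. All 3 KO gel libraries lay at 13.3 to 16.0 CPM, and the other 9 at 24.3 to 30.3. Of the alternatives, scaling by total counts alone gave the smallest interaction, −0.78. The call was lost without the 2 libraries rich in ribosomal RNA (−0.99, adjusted p 0.0537). The KO gel libraries also had more genes detected at a common depth than the other 9 (28362 to 30104, against 24336 to 25142), and the part of this in the difference was not tested.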

How the results depend on the processing

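Of 3571 values of single antioxidant genes under the alternatives, 0 reversed a called direction; calls were lost in 59 values for KO gel against KO media and 37 for KO gel against WT gel, and gained in 23, 28 and, for the interaction, 11. Antioxidant genes called in KO gel against KO media (11) became 6 in a fit of genes averaging 3 or more in log2 CPM, 4 without the libraries rich in ribosomal RNA and 19 with the replicate block; in KO gel against WT gel (6) they became 10 with DESeq2, 10 with only the libraries compared, 1 (the low Me1) without the libraries rich in ribosomal RNA and 10 with the replicate block; in the interaction (0) 2 with no filter beyond 1 count and 6 with the replicate block. Left out in turn, single libraries gave 1 to 14, 1 to 11 and 0 to 3 for these contrasts, Me1 included where a setting let it in, and 0 for WT gel against WT media and KO media against WT media. Counts over all genes moved as follows. KO gel against KO media (3962): 6063 with no filter, 2056 at the higher level, 6159 with the libraries compared, 2200 without the libraries rich in ribosomal RNA, 7804 with the replicate block, 2163 to 5510 without single libraries. WT gel against WT media (7): 15 with total counts, 50 with DESeq2, 195 with no filter, 4 at the higher level, 2 with the libraries compared, 171 with the block, 7 to 16 without single libraries. KO gel against WT gel (2819): 1512 at the higher level, 1444 without the libraries rich in ribosomal RNA, 1609 to 3893 without single libraries. KO media against WT media (36): 89 with DESeq2, 435 with no filter, 19 at the higher level, 19 without the libraries rich in ribosomal RNA, 57 with the block, 23 to 70 without single libraries. Interaction (636): 1149 with DESeq2, 1768 with no filter, 248 at the higher level, 30 without the libraries rich in ribosomal RNA, 3431 with the block, 185 to 2011 without single libraries. Fewer genes or samples enter the restricted fits; other causes were not tested. In KO gel and KO media 4 of 6 libraries, and in KO gel and WT gel 2 of 6, correlated best with their own number. Adding the counts of copies to Ftl1, Gpx4, Gstp1, Txn1, Fth1 and Prdx2, an alternative chosen after seeing the data, gave 12 calls in KO gel against KO media (6 higher, 6 lower). Low counts limit Me1, Mgst1, Gsta4, Slc7a11 and Gpx3.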

Other observations

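WT library 1 ran high in both cultures for several antioxidant enzymes that were not called in any contrast. Transaldolase Taldo1 had 121, 95.9 and 92.7 CPM in WT gel and 129, 103 and 102 CPM in WT media. The lipid peroxidase gene Gpx4 had 53.4, 44.2 and 42.3 CPM in WT gel and 61.4, 47.1 and 46.6 CPM in WT media, and Prdx5 had 50.7, 40.4 and 39.6 CPM in WT gel and 53.9, 41.2 and 38.3 CPM in WT media. The glucose-6-phosphate dehydrogenase gene G6pdx followed the same order, at 61.6, 52.1 and 46.9 CPM in WT gel and 63.6, 51.6 and 45.8 CPM in WT media. For these 4 genes the first WT library of each culture exceeded the other 2 of its group.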
